A study of Mus musculus with 4 samples.

Results

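The 51 genes described here drive or mark cell division in bone marrow-derived macrophages: 23 mitotic genes, 18 DNA replication genes and 10 regulators of the G1 phase, in which a cell commits to divide or stays at rest. A gene's members were the probe sets that the platform annotation gave to its symbol and to no other, and the brightest of them on average stood for the gene. Of the 51 genes, 50 were measured, among 18193 measured genes in all, and no probe set used here named Ccnb1 alone. The study looked for inflammatory genes under the control of Hes1 and Hey1, repressors of the basic helix-loop-helix family. There were 4 groups of C57BL/6 cells with 1 array each. DKO cells, knocked out for both Hes1 and Hey1, received 2 ng/ml of lipopolysaccharide (LPS, a bacterial ligand of the receptor TLR4) for 3 h, WT cells received the same, and DKO and WT cells were also left untreated. All 4 groups were grown from bone marrow for 5 days with 10% serum and 10% supernatant of L929 cells, which supplies macrophage colony-stimulating factor. The sources used here do not say how the genes were deleted, in which cells, or from how many mice the cultures came.

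A cell enters the cycle when D-type cyclins activate CDK4 and CDK6, which phosphorylate the retinoblastoma protein and release E2F factors. E2F factors switch on genes for origin licensing, the replication fork and nucleotide supply, and genes of mitosis follow later under the MuvB complex with B-MYB and FOXM1. Macrophage colony-stimulating factor is the mitogen of cultured macrophages, and LPS is known to halt their proliferation.

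With 1 array in each group, no difference below has a replicate check, an error or a test, and the number of arrays limits the precision. A gene is called higher or lower at 2-fold or more, after values under a floor of 52.9 intensity units, the median of all probe sets, were set to it. The scale of disagreement between probe sets can be read from 4698 genes with a pair of them above the floor. The log2 differences of the 2 brightest disagreed by a median of 0.20 for LPS in DKO cells and 0.26 in WT cells. For DKO against WT cells the median was 0.20 at rest and 0.18 with LPS. This spread does not cover variation between arrays or cultures, which both probe sets share. All 11 macrophage markers checked, among them Csf1r, Adgre1 and Cd68, lay above the floor on all arrays. The defining markers of other cells the culture could hold were under it on all arrays for B cells (5 of 5 measured), and for most T and NK cell (4 of 5), fibroblast (7 of 8), neutrophil (5 of 6), dendritic cell (5 of 6) and erythroid or mast cell markers (4 of 5). Of 10 progenitor markers, Flt3, Mpo, Elane, Ctsg, Prtn3 and Myb were under it. The targeted genes were dim: Hes1 read 5.80 and 2.14 units on the DKO arrays with and without LPS, against 26.7 and 45.4 on the WT arrays, and Hey1 10.2 and 9.17 on the DKO arrays, against 17.3 and 57.2 on the WT arrays. Only Hey1 on the untreated WT array passed the floor, so that neither gene checks the labels of the arrays with LPS.

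Transcripts of dividing cells were bright in all 4 groups. Of the 50 measured genes, 49 lay above the floor on all arrays and 44 had a mean of at least 500 units. Mki67, whose product coats mitotic chromosomes and is the usual label of cycling cells, read 8828 units on the DKO array with LPS against 8285 untreated, and 9079 on the WT array with LPS against 7625 untreated. Top2a, the topoisomerase that untangles sister chromosomes, read 9231 units on the DKO array with LPS against 8514 untreated, and 10009.9 on the WT array with LPS against 8141 untreated. Pcna, the sliding clamp of DNA polymerases, read 15956 units on the DKO array with LPS against 16971 untreated, and 17109.7 on the WT array with LPS against 15576 untreated. These 3 genes stayed within 1.23-fold of their untreated level in both genotypes. The exception was Tyms, thymidylate synthase, which read 40.9 units with LPS against 51.1 untreated in DKO cells and 35.8 against 65.1 in WT cells, over the floor only on the untreated WT array. Its 4 probe sets were all dim. Intensities of different probe sets are not comparable as levels, so genes are compared only with themselves across arrays.

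**Figure D1:**
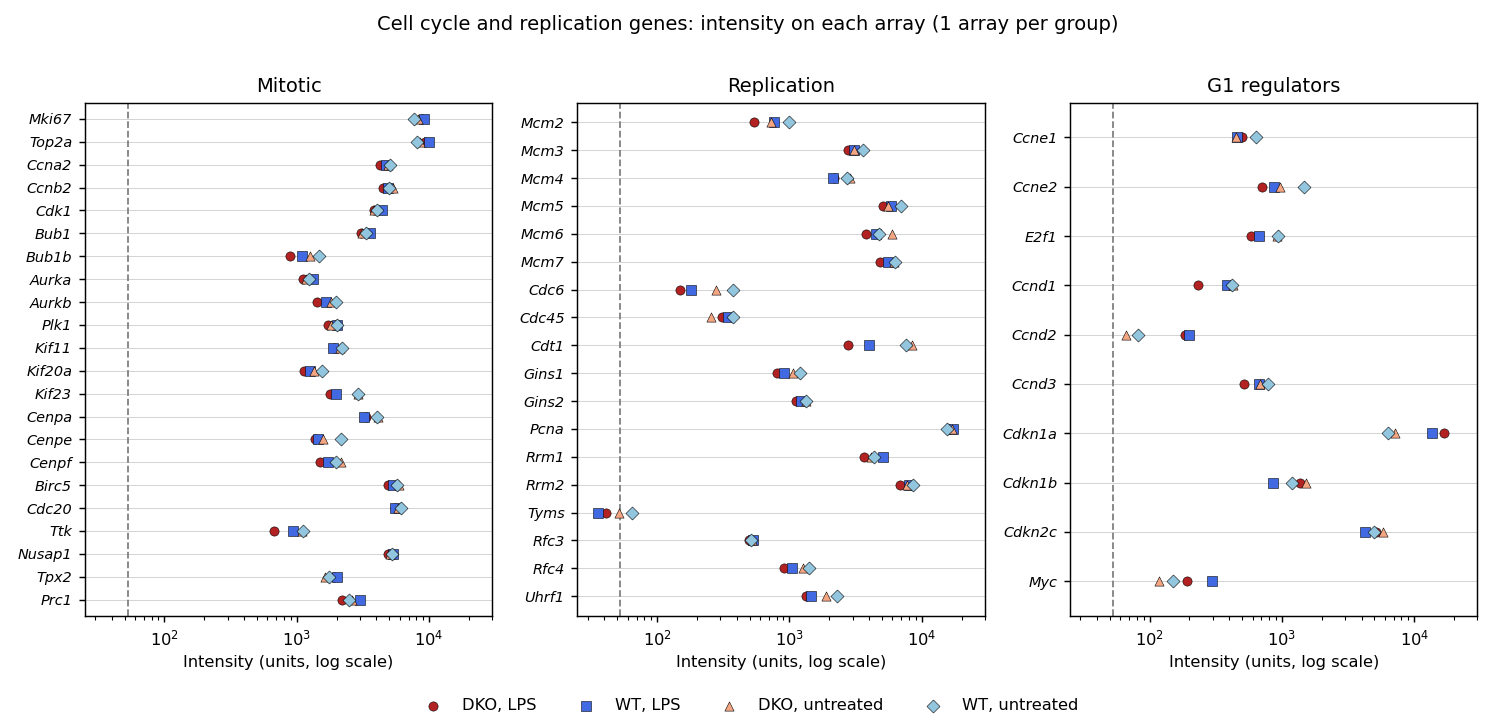
Intensity of the 50 measured genes on the 4 arrays (x axis, units on a log scale), by class, with 1 point per array and the floor of 52.9 units as a dashed line. Most mitotic genes have their 4 points close together, while Cdt1, Cdc6, Cdkn1a and Ccnd2 show the arrays with LPS apart from the untreated ones.

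The classes also differ in the sequence around their transcription starts, which played no part in choosing them. A RefSeq table of mouse promoters (build GRCm38.p6, 250 bases before to 50 after a start) held 40 of the 51 genes. The cell cycle homology region TTTGAA, bound by MuvB complexes, was searched on both strands, as were the E2F site in any of its forms TTCCCGC (the first form), TTGGCGC (the second form) and TTCGCGC (the third form). The NF-Y site, CCAAT, was searched likewise. E2F matches on opposite strands can overlap each other, and one that ends in CCAA can overlap CCAAT. The homology region was present in 14 of 19 mitotic genes (73.7%), 2 of 15 replication genes (13.3%) and 0 of 6 G1 regulators, against 15.7% of 14452 measured genes with a promoter in the table and 20.2% of all 27025 genes in it. The order was the other way for E2F sites: 3 of 19 mitotic genes, 10 of 15 replication genes (66.7%) and 1 of 6 G1 regulators, against 13.8% of measured genes and 9.20% of all. CCAAT stood in 17 of 19 mitotic and 11 of 15 replication genes, against 42.0% of measured genes and 41.1% of all. A match is a description of the letters in the window and not a shown binding site.

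Binding motifs of the HES and HEY proteins themselves set the 40 genes less apart. The N-box CACNAG stood in 16 of 40 (40.0%, against 46.1% of measured genes and 46.1% of all), the class C site CACGCG in 4 of 40 (10.0%, against 16.2% and 10.5%) and the E-box CACGTG in 3 of 40 (7.50%, against 10.2% and 8.09%).

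**Figure D2:**
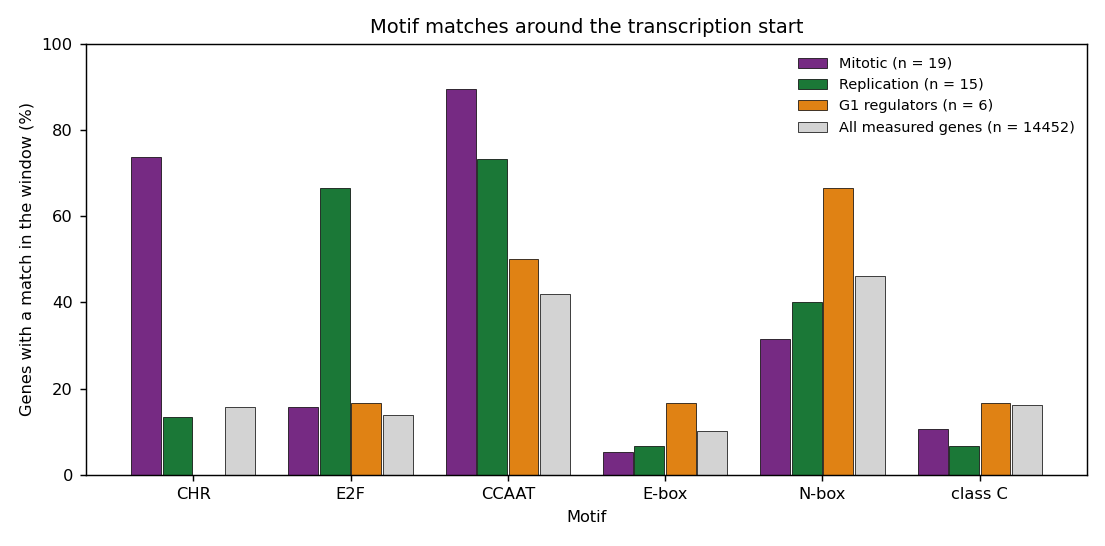
Share of genes (y axis, %) with at least 1 match to each motif (x axis) in the window around the transcription start, for mitotic, replication and G1 regulator genes and all measured genes, with the number of genes in brackets. The homology region stands out in the mitotic class at 73.7% and the E2F site in the replication class at 66.7%.

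The 250 bases before the start are printed for a pair of mitotic genes and a pair of replication genes, Cdc6 and Mcm6, whose values are described below. They are examples, and the contrast between the classes rests on the shares above. Capitals mark the homology region, the E2F site and CCAAT on either strand. The stretch before Ccnb2, the cyclin B2 gene, is chr9:70421555-70421804, minus strand, and that before Cdk1, the kinase that starts mitosis, chr10:69352913-69353162, minus strand. Cdc6, which loads the helicase at origins, starts after chr11:98907901-98908150, plus strand, and Mcm6, a subunit of that helicase, after chr1:128359706-128359955, minus strand. All are GRCm38.p6.
Ccnb2: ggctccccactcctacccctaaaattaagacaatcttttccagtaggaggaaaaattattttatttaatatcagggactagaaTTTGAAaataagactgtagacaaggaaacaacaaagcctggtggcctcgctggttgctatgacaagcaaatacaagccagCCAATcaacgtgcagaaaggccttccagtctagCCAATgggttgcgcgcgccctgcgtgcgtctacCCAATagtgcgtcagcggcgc
Cdk1: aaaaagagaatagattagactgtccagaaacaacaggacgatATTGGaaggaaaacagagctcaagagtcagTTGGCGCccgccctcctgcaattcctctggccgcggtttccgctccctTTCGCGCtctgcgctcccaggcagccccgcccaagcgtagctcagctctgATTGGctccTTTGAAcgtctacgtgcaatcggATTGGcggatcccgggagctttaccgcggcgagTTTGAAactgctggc
Cdc6: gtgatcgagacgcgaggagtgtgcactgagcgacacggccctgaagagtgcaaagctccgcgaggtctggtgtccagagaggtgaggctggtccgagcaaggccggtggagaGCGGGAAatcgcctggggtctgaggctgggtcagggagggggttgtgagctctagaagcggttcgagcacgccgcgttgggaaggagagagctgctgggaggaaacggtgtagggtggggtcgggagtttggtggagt
Mcm6: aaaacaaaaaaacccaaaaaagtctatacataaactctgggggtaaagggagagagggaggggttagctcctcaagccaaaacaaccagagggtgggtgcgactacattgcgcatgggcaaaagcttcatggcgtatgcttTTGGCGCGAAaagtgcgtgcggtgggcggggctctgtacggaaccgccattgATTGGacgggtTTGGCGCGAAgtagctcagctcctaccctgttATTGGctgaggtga
In Mcm6 the E2F matches form overlapping pairs on the 2 strands beside CCAAT, Cdc6 holds 1 E2F match, and Cdk1 holds both the homology region and E2F sites. Ccnb2 has a further homology region match just past the start, outside the printed stretch.

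After 3 h of LPS, the mitotic genes stood within 2-fold of the untreated level in both genotypes. Of 22 mitotic genes, 0 were higher and 0 lower by 2-fold with LPS in either genotype. The exception by another probe set was Nusap1, whose second one read 47.3 with LPS, under the floor, against 134 untreated in WT cells (at least 2.53-fold lower), and 187 with LPS against 136 untreated in DKO cells. Of all genes, 4.66% were higher and 4.77% lower in DKO cells, and 3.36% and 3.41% in WT cells. Of genes averaging 500 units or more, which suit these bright genes better, the shares were 5.12% and 3.42% in DKO, and 3.92% and 1.86% in WT cells. The median log2 difference of the class was -0.21 in DKO cells, against -0.10 for all genes, and -0.11 in WT cells, against -0.086. With array medians set equal, the class median in WT cells turned to 0.11 and that of all genes to 0.12, so class medians are also given as their distance from the median of all genes. That distance was -0.10 in DKO cells and -0.020 in WT cells. The 6615 genes averaging 500 units or more had medians of -0.081 in DKO and -0.016 in WT cells. In such bulk samples, fewer dividing cells and less transcript per cell cannot be told apart.

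The summed intensity of the 10 progenitor markers was 647 units in DKO cells with LPS against 1577 untreated, and 962 in WT cells with LPS against 1975 untreated, with the myeloid progenitor genes Mpo, Elane, Ctsg and Prtn3 under the floor on all arrays. Such a sum adds probe sets of unlike brightness, and Sox4 carries most of its difference with LPS, at 25.5 with LPS against 888 untreated in DKO and 27.7 with LPS against 711 untreated in WT cells. Without Sox4, left out after its values were seen, the sum was 622 with LPS against 689 untreated in DKO and 935 with LPS against 1264 untreated in WT cells. Cd34 was lower by 2-fold in DKO than in WT cells at either treatment, at 229 against 552 units with LPS and 361 against 876 untreated, while Gata2 read slightly higher with LPS in both genotypes. The part of progenitors in the cell cycle values was not tested. The summed intensity of the 11 macrophage markers was 139579 with LPS against 110303 untreated in DKO and 130085 with LPS against 88489 untreated in WT cells. Of these, Cd14 read 30625 with LPS against 12234 untreated in DKO and 26767 with LPS against 9103 untreated in WT cells. Itgam, Fcgr1, Mertk and Mrc1 read lower with LPS in both genotypes, and the other macrophage markers higher.

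By their brightest probe sets, the mitotic genes with the largest differences with LPS were Kif23, Ttk, Cenpe, Cenpf and Bub1b. Kif23, a motor of the central spindle needed for cytokinesis, read 1789 units on the DKO array with LPS against 2916 untreated, and 1993 on the WT array with LPS against 2923 untreated. Its second probe set gave log2 differences of -0.75 in DKO and -0.57 in WT cells, close to -0.71 and -0.55 for the brightest. Ttk, the checkpoint kinase Mps1, read 667 units on the DKO array with LPS against 1099 untreated, and 932 on the WT array with LPS against 1113 untreated, which put the DKO array with LPS below the other 3.

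Cenpf, a kinetochore protein, read 1511 units on the DKO array with LPS against 2173 untreated, and 1729 on the WT array with LPS against 1978 untreated. Its partner in chromosome capture, the motor gene Cenpe, read 1371 units on the DKO array with LPS against 1572 untreated, and 1452 on the WT array with LPS against 2171 untreated, and here the untreated WT array was the high one. Its second probe set, nearly as bright, read 1209.5 with LPS against 1176 untreated in DKO cells and 1423 with LPS against 1321 untreated in WT cells, so the direction of Cenpe is uncertain. Bub1b, the checkpoint protein BubR1, read 889 units on the DKO array with LPS against 1252 untreated, and 1094 on the WT array with LPS against 1461 untreated, lower with LPS in both genotypes by log2 differences of -0.49 and -0.42.

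The remaining mitotic genes differed less by their brightest probe sets. Log2 differences with LPS lay between -0.36 (Aurkb) and 0.23 (Tpx2) in DKO cells and between -0.34 (Cenpa) and 0.30 (Top2a) in WT cells for Mki67, Top2a, the cyclins Ccna2 and Ccnb2, Cdk1, the checkpoint kinase Bub1, the mitotic kinases Aurka, Aurkb and Plk1, the spindle motors and bundlers Kif11, Kif20a and Prc1, the centromeric histone Cenpa, the Aurora B partner Birc5 (survivin), the anaphase activator Cdc20, and the spindle assembly factors Nusap1 and Tpx2. The second probe set of Cenpa read -0.91 in DKO and -0.80 in WT cells, lower than any brightest one of the class. That of Bub1 read -0.36 and -0.65, while those of Ccna2, Cdc20 and Prc1 read above 0 in both genotypes. Of all 22 genes by their brightest probe sets, 18 read lower with LPS in DKO cells and 14 in WT cells, and with array medians set equal 18 and 8 did.

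Replication genes had lower medians with LPS than mitotic genes, except in WT cells by second probe sets (-0.36 against -0.40). In DKO cells the median log2 difference was -0.35, a distance of -0.25 from all genes (range -0.27 to -0.19) over the scalings, floors and probe set choices tried. In WT cells the median was -0.24, at a distance of -0.16 (range -0.33 to -0.14), although with array medians set equal the median itself was -0.027. The matching distances of the mitotic class ranged from -0.21 to -0.052 in DKO and from -0.25 to 0.029 in WT cells. Of 17 replication genes measurable in DKO cells 16 read lower with LPS, and 15 of 18 in WT cells (10 of 18 with array medians set equal). In DKO cells 1 of 17 was lower by 2-fold, Cdt1, and in WT cells 1 of 18, Cdc6.

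The largest differences belonged to the licensing factors, which load the MCM helicase on origins in G1. Cdt1 read 2756 units on the DKO array with LPS against 8442 untreated, and 3992 on the WT array with LPS against 7665 untreated. Both arrays with LPS lay below both untreated ones, and Cdt1 was 3.06-fold lower in DKO cells and 1.92-fold lower in WT cells. Its second probe set read 881 against 2839 in DKO cells and 1342 against 3229 in WT cells, a log2 difference of -1.69 and -1.27, so that WT cells also passed 2-fold by it.

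Cdc6, the partner of Cdt1 in loading, read 148 units on the DKO array with LPS against 279.7 untreated, and 179.6 on the WT array with LPS against 375 untreated. It was 1.89-fold lower with LPS in DKO cells and 2.09-fold lower in WT cells, with 1 probe set only. In WT cells its log2 difference was -1.06, short of 2-fold under the 3 other scalings (-0.85 with equal medians, -0.90 after quantile normalization and -0.83 after cyclic loess), the last 2 of which put Cdt1 past 2-fold instead (-1.06 and -1.01).

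The helicase subunits Mcm2 to Mcm7 all read lower with LPS by their brightest probe sets in both genotypes, from -0.11 (Mcm5) to -0.65 (Mcm6) in DKO cells and from -0.092 (Mcm6) to -0.39 (Mcm2) in WT cells, while over the alternatives Mcm3, Mcm6 and Mcm7 reached 0.31, 0.12 and 0.030 in WT cells. Mcm6 read 3803 units on the DKO array with LPS against 5960.0 untreated, and 4489 on the WT array with LPS against 4786 untreated. Its second probe set gave -0.70 in DKO and -1.11 in WT cells, and that of Mcm4 gave -0.36 and -1.01 against -0.40 and -0.35 for the brightest, so these genes are uncertain in WT cells. Mcm2 read 540.1 units on the DKO array with LPS against 729.5 untreated, and 759 on the WT array with LPS against 994 untreated, lower in DKO than in WT cells at either treatment.

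Uhrf1, which guides maintenance methylation behind the fork, read 1345 units on the DKO array with LPS against 1905 untreated, and 1463 on the WT array with LPS against 2296 untreated. Cdc45, which completes the active helicase, read 311 units on the DKO array with LPS against 255 untreated, and 341 on the WT array with LPS against 373 untreated. By the brightest probe sets and the values as deposited, it was the only replication gene above its untreated level in DKO cells (0.29). Rrm1, the large subunit of ribonucleotide reductase, read 3673 units on the DKO array with LPS against 4143 untreated, and 5065 on the WT array with LPS against 4391 untreated, lowest on the DKO array with LPS.

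By their brightest probe sets, the other replication genes stayed between -0.49 (Rfc4) and -0.067 (Rfc3) in DKO cells. In WT cells they stayed between -0.44 (Rfc4) and 0.14 (Pcna). They were the GINS subunits Gins1 and Gins2 of the helicase, Pcna, the clamp loader subunits Rfc3 and Rfc4, and Rrm2, the small reductase subunit. In DKO cells Rfc3 turned to 0.037 after quantile normalization and 0.086 after cyclic loess. Its second probe set gave 0.22 in DKO and -0.40 in WT cells, so the direction of Rfc3 is uncertain. Tyms gave a bound only in WT cells, at least 1.23-fold lower with LPS, from a probe set close to the floor. The bound by its second probe set was at least 1.04-fold.

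**Figure D3:**
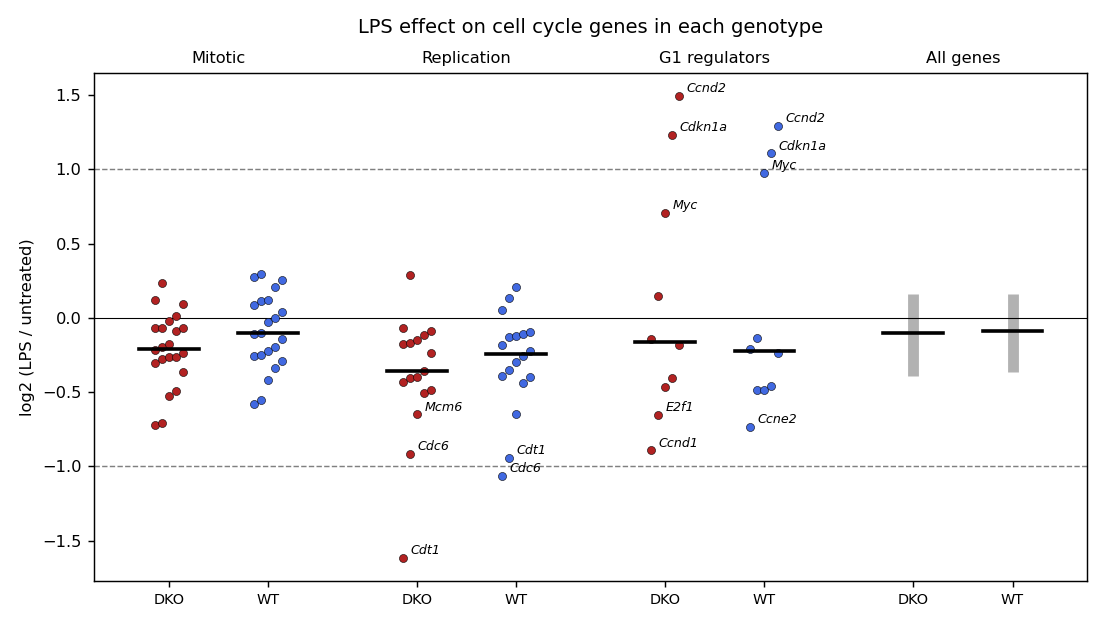
Log2 ratio of LPS to untreated intensity (y axis) for each gene, by class and genotype, with 1 point per gene, black bars for medians, grey bars for the middle 50% of all genes and dashed lines at 2-fold. Mitotic genes stay inside the dashed lines, Cdt1 and Cdc6 lie lowest, and Ccnd2 and Cdkn1a lie above the upper line in both genotypes.

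G1 regulators went in both directions. Of 10 genes, 2 were higher by 2-fold in each genotype, Cdkn1a and Ccnd2, and 0 lower. Over all 49 genes with a difference in DKO cells that makes 2 higher and 1 lower, against 4.66% and 4.77% of all genes, and over 50 in WT cells 2 higher and 1 lower, against 3.36% and 3.41%. Shares of that size are near the background. The class medians of -0.16 in DKO and -0.22 in WT cells (the WT value 0.15 by second probe sets) take genes of opposite sign together.

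Cdkn1a encodes p21, an inhibitor of cyclin-dependent kinases that arrests cells in G1. It read 16881 units on the DKO array with LPS against 7178 untreated, and 13678 on the WT array with LPS against 6348 untreated. Both arrays with LPS were above both untreated ones, by 2.35-fold in DKO and 2.15-fold in WT cells, and the second probe set gave log2 differences of 1.22 and 1.02, next to 1.23 and 1.11. In WT cells it was short of 2-fold after quantile normalization (0.96) and cyclic loess (0.96), and past it with array medians set equal (1.32).

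Ccnd2, a D-type cyclin, read 186 units on the DKO array with LPS against 66.0 untreated, and 199 on the WT array with LPS against 81.4 untreated. It was 2.82-fold higher with LPS in DKO and 2.45-fold higher in WT cells, and its second probe set read 1.28 and 1.03 on the log2 scale. The untreated values lie close to the floor, and with a floor at the 65th percentile the log2 differences shrank to 0.14 and 0.24.

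Myc, a transcription factor that drives growth and G1 progression, read 193 units on the DKO array with LPS against 118 untreated, and 296 on the WT array with LPS against 150.3 untreated, a ratio of 1.63 in DKO and 1.97 in WT cells, both short of 2-fold. The 3 other scalings put Myc past 2-fold in WT cells, with log2 differences of 1.19 (equal medians), 1.18 (quantile normalization) and 1.23 (cyclic loess), and left it short in DKO cells (0.71, 0.81 and 0.89). The other D cyclins read lower with LPS in DKO cells, and their direction in WT cells was less certain. Ccnd1 read 231 units on the DKO array with LPS against 429 untreated, and 382 on the WT array with LPS against 419.6 untreated, with the DKO array with LPS alone at the low end. All 3 probe sets of Ccnd1 had their lowest value there, at 231, 282 and 235 units. In WT cells the log2 difference of Ccnd1 with LPS was -0.14, but 0.079, 0.018 and 0.063 under the 3 other scalings. Its other probe sets gave 0.15 and -0.17, so its direction in WT cells is uncertain. Ccnd3 gave log2 differences of -0.41 in DKO and -0.24 in WT cells, the latter 0.32 by its second probe set.

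E2f1 encodes one of the E2F factors. It read 579 units on the DKO array with LPS against 912 untreated, and 671 on the WT array with LPS against 938 untreated. Its second probe set read 229 against 521 in DKO cells and 294 against 491 in WT cells, a log2 difference of -1.18 and -0.74, so that E2f1 passed 2-fold in DKO cells by that probe set. The E cyclins, which partner CDK2 at the entry to S phase, differed from each other. Ccne2 read 701 units on the DKO array with LPS against 968 untreated, and 876 on the WT array with LPS against 1457 untreated. Ccne1 read 499 units on the DKO array with LPS against 451 untreated, and 459.8 on the WT array with LPS against 631 untreated, with the untreated WT array alone at the high end, but by its second probe set the log2 difference with LPS was near 0 in both genotypes (0.011 and 0.0029).

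Cdkn1b, the inhibitor p27, read 1373 units on the DKO array with LPS against 1517 untreated, and 853 on the WT array with LPS against 1193 untreated, and its second probe set read lower with LPS in both genotypes (-0.66 and -0.68). Cdkn2c, the CDK4 and CDK6 inhibitor p18, gave -0.18 and -0.21.

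**Figure D4:**
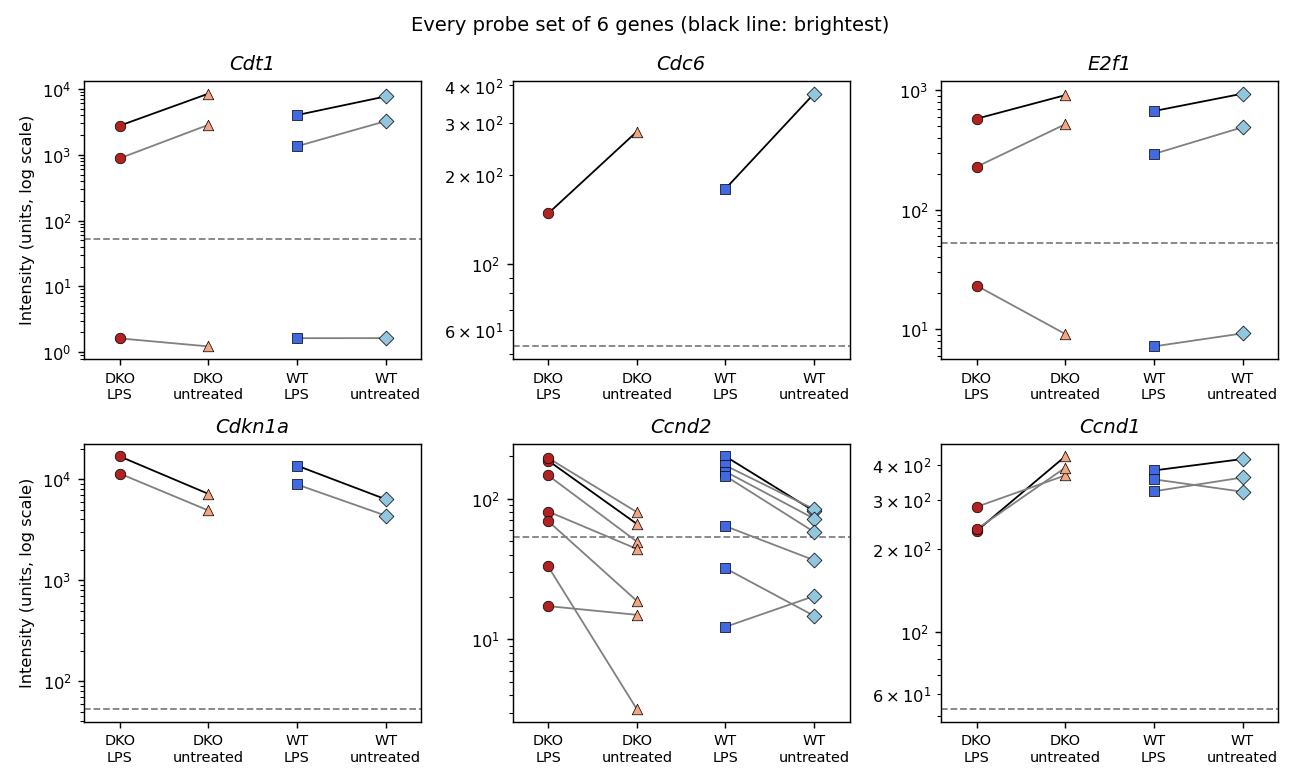
Intensity (y axis, units on a log scale) of every probe set of 6 genes on the 4 arrays, with lines joining the LPS and untreated arrays of a genotype, the brightest probe set in black and the floor of 52.9 units dashed. The pair of bright probe sets of Cdt1, E2f1 and Cdkn1a slope the same way in both genotypes, and the 3 of Ccnd1 are lowest on the DKO array with LPS.

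Signs could be set side by side across genotypes, since LPS in DKO and LPS in WT cells share no array. Of 49 genes with both differences, 33 read lower with LPS in both genotypes and 7 higher in both, and 33 of 49 is 67.3%, against 48.0% of all genes and 44.9% of genes averaging 500 units or more. By class, both were lower for 13 of 17 replication, 14 of 22 mitotic and 6 of 10 G1 genes. With array medians set equal, the share was 44.0%, against 32.1% of all genes.

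At rest, no gene of the programme was 2-fold apart between the genotypes. Of 50 genes, 0 were higher and 0 lower by 2-fold in untreated DKO against untreated WT cells, where 0.466% of all genes were higher and 0.984% lower (0.272% and 0.439% of genes averaging 500 units or more), so a count of 0 is near the background. Class medians were -0.041 for mitotic, -0.15 for replication and -0.12 for G1 genes, against -0.017 for all genes, and with array medians set equal these medians were all above 0 (all genes at 0.19). Genes averaging 500 units or more had a median of 0.0205 at rest, with 46.1% of them below 0. Relative to all genes, replication genes lay at -0.14 (range -0.15 to -0.11) and mitotic genes at -0.024 (-0.085 to -0.0035). At rest the 2 brightest probe sets agreed in sign for 19 of the 32 genes with both above the floor.

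The values furthest apart at rest by the brightest probe sets, DKO against WT in each case, were those of Ccne2 at 968 against 1457 units (-0.59), Cdc45 at 255 against 373 (-0.55), Ccne1 at 451 against 631 (-0.48, and -0.61 by its second probe set), Cenpe (-0.47), Mcm2 (-0.45) and Cdc6 (-0.42). The second probe set of Cenpe gave -0.17 and that of Mcm2 -0.42. Kif20a, a motor of cytokinesis, stood at 1353 in DKO against 1539 in WT cells at rest (-0.19). The highest in DKO cells were Cdkn1b (0.35, against -0.10 by its second probe set) and Mcm6 (0.32, against -0.34), in both of which the probe sets gave opposite signs.

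With LPS, DKO cells read slightly lower than WT cells over most of the programme. Of 49 genes, 0 were higher and 0 lower by 2-fold, beside 0.845% and 0.934% of all genes and 0.378% and 0.348% of the bright ones, but 41 of 49 read lower in DKO cells (83.7%, against 56.6% of all genes and 57.4% of genes averaging 500 units or more). Of mitotic genes 19 of 22 did, of replication genes 16 of 17 and of G1 genes 6 of 10. The count over the 3 other scalings was 41 to 42 of 49, against 51.8% to 56.0% of all genes. Between the 2 brightest probe sets, the sign agreed for 23 of the 32 genes with both above the floor. The class medians were -0.16, -0.19 and -0.16, against -0.040 for all genes, and relative to all genes they ranged over the alternatives from -0.14 to -0.12 for mitotic, -0.19 to -0.12 for replication and -0.33 to -0.10 for G1 genes. A single pair of arrays stands behind all of these medians.

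The genes furthest apart with LPS were Ccnd1, Cdkn1b, Myc and Cdt1. In DKO against WT cells, Ccnd1 stood at 231 against 382 units (-0.72, and -0.33 and -0.45 by its other probe sets), Myc at 193 against 296 (-0.61) and Cdt1 at 2756 against 3992 (-0.53, and -0.61 by its second probe set). Mcm2 (-0.49, and -0.29 by its second probe set), Ttk (-0.48), Rrm1 (-0.46, and -0.13) and Prc1 (-0.45, against 0.021) followed. Among mitotic genes, Bub1b (-0.30, and -0.11 by its second probe set) came after Ttk and Prc1. Cdkn1b was the one far on the other side, at 1373 in DKO against 853 in WT cells (0.69), and its second probe set read -0.087.

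**Figure D5:**
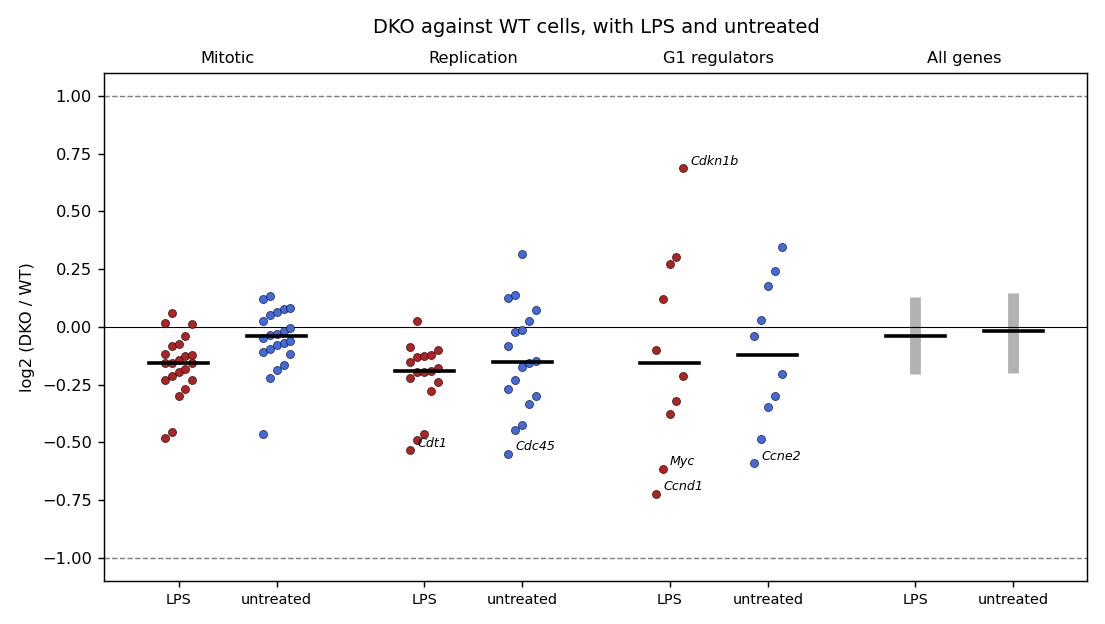
Log2 ratio of DKO to WT intensity (y axis) for each gene, by class, with LPS and untreated, with 1 point per gene, black bars for medians, grey bars for the middle 50% of all genes and dashed lines at 2-fold. No gene reaches 2-fold, and with LPS 41 of 49 points lie below 0.

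The difference of the LPS effects, DKO minus WT, asks whether the response of a gene depends on genotype. Here the 2 brightest probe sets agreed in sign for 16 of the 32 genes of the programme with both above the floor. Over 4698 genes they disagreed by a median of 0.27. None of 49 genes reached 2-fold, beside 1.31% of all genes on the higher and 0.721% on the lower side (0.439% and 0.212% of bright genes). The median of -0.10 compares with -0.047 for all genes and -0.061 for bright genes. After quantile normalization the members' median was -0.048 against -0.050 for all genes, and after cyclic loess -0.033 against -0.028. The effect was more negative in DKO cells for Ccnd1 (-0.75), Cdt1 (-0.67), Mcm6 (-0.56), Prc1 (-0.53) and Ttk (-0.47), and more positive for Ccne1 (0.60), Cdc45 (0.42), Cenpe (0.38) and Cdkn1b (0.34). The second probe sets kept the sign for Ccnd1 (-0.52) and Cdt1 (-0.42), and did not give a like value for Mcm6 (0.41), Prc1 (0.022), Ccne1 (0.0081), Cenpe (-0.068) or Cdkn1b (0.013). Those of Ttk and Cdc45 were under the floor on some arrays and gave no value.

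Read across all 4 arrays, 33 of 49 genes above the floor had their lowest value in DKO cells with LPS (67.3%), against 38.7% of all genes above it and 36.3% of those averaging 500 units or more. With array medians set equal it was 27 of 49, against 29.5% of all genes. By class 14 of 17 replication, 15 of 22 mitotic and 4 of 10 G1 genes were lowest there. The highest value fell on the untreated WT array for 25 of 49 genes, where 31.2% of all genes and 25.7% of the bright ones had theirs, and on the DKO array with LPS for 1, Cdkn1a.

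Further genes of the same machinery were taken from wider lists. These were read by their brightest probe sets only and were not recomputed under the other scalings, floors or probe set choices. Of a further 79 mitotic genes, 78 were measured and 76 had a difference, with a median of -0.16 with LPS in DKO and -0.13 in WT cells. In DKO cells 4 were lower by 2-fold with LPS and 0 higher, beside 4.77% and 4.66% of all genes, a count near the background. They are given here with LPS against untreated: Cdc25b, the phosphatase that activates Cdk1, at 1149.8 against 2838 units, the motor gene Kif18a at 195 against 462, the spindle gene Psrc1 at 447 against 987 and the condensin subunit gene Ncapg2 at 2810.3 against 6058. The same 4 read -0.88, -0.75, -0.96 and -0.71 on the log2 scale in WT cells. In WT cells 2 were lower, Depdc1a (-1.13, and -0.34 in DKO cells) and the condensin subunit gene Ncapg (-1.07, and -0.36), and 0 higher, beside 3.41% and 3.36% of all genes.

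Of a further 69 replication and repair genes, 65 were measured, with a median of -0.36 with LPS in DKO and -0.23 in WT cells, near the -0.35 and -0.24 of the replication class. In DKO cells 58 of 65 read lower (89.2%, against 60.9% of all genes) and 3 were lower by 2-fold, near the 4.77% of all genes. They are given here with LPS against untreated: the nuclease and helicase gene Dna2 at 379.6 against 934 units, the origin recognition gene Orc5 at 376 against 900.1 and Cdca7, a chromatin remodelling factor, at least 2.83-fold lower. In WT cells 53 of 65 read lower (81.5%, against 59.2% of all genes) and Dna2 alone passed 2-fold lower, at 587 units with LPS against 1302 untreated, beside 3.41% of all genes. The WT count may depend on the scaling, since with array medians set equal that of the replication class went from 15 to 10 of 18.

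Between genotypes with LPS, 61 of these 65 read lower in DKO than in WT cells (93.8%, against 56.6% of all genes), with a median of -0.21 against -0.040 for all genes. The further mitotic genes did so in 53 of 76 (69.7%, median -0.092) and 58 further G1 regulators in 31 of 56 with a difference (55.4%, median -0.032). Of the 65, 1 passed 2-fold, Cdca7 (at least 2.13-fold lower). Untreated, 54 of 65 read lower in DKO cells (83.1%, against 53.0% of all genes), with a median of -0.13, and 0 passed, and of the further mitotic genes 52 of 76 (68.4%). These untreated counts were not recomputed with array medians set equal. That scaling moved the untreated median of the replication class from -0.15 to 0.059 and that of all genes from -0.017 to 0.19. The difference of LPS effects passed 2-fold for 1 of 63, the flap nuclease gene Fen1 (-1.03), by its brightest probe set alone. Fen1 read 2305 units on the DKO array with LPS against 3573 untreated, and 3512 on the WT array with LPS against 2672 untreated. Of the further mitotic genes 0 of 76 passed in any of these 3 comparisons.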

How the data were processed

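Microarrays measured RNA from 4 samples, 1 for each genotype and treatment. Per the labels' protocols, total RNA was column-purified, amplified and labelled with biotin. The deposited values are intensities per probe set on a linear scale, and from the values every array had a mean of 500.0 units after trimming 2% at either end, so they had been scaled before deposit. Not given in the sources used here is the program that did so. This scaling leaves dim probe sets free to differ between arrays.

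Of 45101 probe sets, the annotation ties 34945 to a single gene, 932 to several and 9160 to none, and 64 are controls. Symbols were updated by Entrez identifier through a RefSeq table (GRCm38.p6). Differences are log2 ratios of 2 arrays after the floor. A difference with 1 array under it is a bound, and with both under it there is none. With 1 array per group no test was run.

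All 51 genes were named, with all arrays' values for those past 2-fold and the 3 with the largest difference per class and comparison. Genes and lists were chosen with earlier results of these data known. Alternatives were equal medians, quantile normalization, cyclic loess (limma 3.58.1), other floors, an offset of 16 units, other probe sets and thresholds. Python 3.11.15 and R 4.3.3 were used, and the differences were checked on simulated data.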

Additional observations from a re-analysis of the deposited data

Results flagged for a closer look

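Prc1, which bundles the central spindle, had LPS effects of opposite sign in the 2 genotypes, -0.26 in DKO and 0.27 in WT cells on the log2 scale. It read 2182 units on the DKO array with LPS against 2615 untreated, and 2989 on the WT array with LPS against 2474 untreated. Its second probe set gave 0.19 and 0.17, the same sign in both. The difference between genotypes was not tested.

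A probe set that the annotation assigns to both Tyms and its pseudogene Tyms-ps gave 1221 units in DKO cells with LPS against 1287 untreated and 1437 in WT cells with LPS against 1498 untreated. It was not used above, since it cannot be assigned to either gene, and it lay far above the floor while the 4 probe sets of Tyms alone were dim.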

How the results depend on the processing

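The 10 counts of genes past 2-fold and the 15 class medians were recomputed under the alternatives. With no replicates, how far a class median moved could not be set against a spread, and the changes of sign and the larger moves are given. With LPS in DKO cells, the 2 higher genes were 1 with a floor at the 65th percentile or the median of probe sets and 0 at 3-fold. The 1 lower gene became 2 with the median of probe sets, the second brightest probe set or shared probe sets left out, each adding E2f1 to Cdt1, and 7 at 1.5-fold. In WT cells, the 2 higher were Ccnd2 and Myc, without Cdkn1a, after quantile normalization and cyclic loess, Myc was added with equal medians, and they were 1 with the floor at the 65th percentile and 0 at 3-fold. The 1 lower was 0 with equal array medians or at 3-fold, 3 with the median of probe sets, and 4 with the second brightest probe set (Nusap1, Mcm4, Mcm6 and Cdt1) or at 1.5-fold. The WT mitotic median turned to 0.11 with equal medians. Second probe sets moved the WT medians to -0.40 for mitotic and 0.15 for G1 genes. For DKO against WT cells at rest, equal array medians moved the medians to 0.17 (mitotic), 0.059 (replication) and 0.089 (G1), all above 0, and shared probe sets left out turned the G1 median to 0.032. At rest 1 gene, Ccne2, was lower at 1.5-fold. With LPS, second probe sets gave 1 higher (Nusap1) and 1 lower (Ccnd3) gene in DKO cells, the median of probe sets 1 lower, and 1.5-fold 1 higher and 2 lower. The difference of LPS effects gave 1 higher and 2 lower at 1.5-fold, its replication median turned to 0.030 with the median of probe sets, and its G1 median to -0.13 with equal medians. The causes were not tested, beyond the lower or higher thresholds themselves. Among single genes past 2-fold, none changed sign in the comparison where it passed. In WT cells the 1 lower gene was Cdt1 in place of Cdc6 after quantile normalization, after cyclic loess and with shared probe sets left out. No paired analysis was possible because each group holds 1 array. Signal over background limits Ccnd2, Myc and Tyms, which lie closest to the floor.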

Other observations

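A further 60 regulators of G1 and growth arrest, 58 of them measured, included genes with large differences with LPS. Of 56 with a difference, 6 were higher and 3 lower by 2-fold in DKO cells, and 3 higher and 3 lower in WT cells, beside 4.66% and 4.77% of all genes in DKO and 3.36% and 3.41% in WT cells. Mycl, a relative of Myc, read 553 units with LPS against 1.11 untreated in DKO cells and 552 against 2.38 in WT cells, at least 10.4-fold higher in both. Cdkn2b, the inhibitor p15, read 489.7 units on the DKO array with LPS against 96.5 untreated, and 209.9 on the WT array with LPS against 62.4 untreated, and it was 2.33-fold higher in DKO than in WT cells with LPS. The stress genes Gadd45b (4.52-fold in DKO and 3.27-fold in WT cells) and Gadd45a (3.28-fold and 1.90-fold) were also high with LPS, as were the ubiquitin ligase scaffold Cul1 (2.46-fold and 1.65-fold) and the kinase Cdk6 (2.06-fold and 1.98-fold), the last 3 of them past 2-fold in DKO cells and short of it in WT cells.

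Of the genes lower by 2-fold, Mnt, Mxd3 and Mxd4 encode partners of MAX that compete with MYC, and they were picked out after their values were seen. The related genes Mxd1 and Mxi1 of the same list were not among those past 2-fold with LPS in either genotype. Mnt read 609 units on the DKO array with LPS against 2056 untreated, and 900.3 on the WT array with LPS against 1827 untreated, a log2 difference of -1.75 and -1.02. Mxd4 read 364 units on the DKO array with LPS against 999.8 untreated, and 359 on the WT array with LPS against 939 untreated. Mxd3 read 124 units on the DKO array with LPS against 378 untreated, and 194 on the WT array with LPS against 365 untreated, past 2-fold in DKO cells and short of it in WT cells, and the difference of its LPS effects (-0.69) did not reach 2-fold. Tfdp2, a partner of E2F factors, was lower in WT cells (-1.05, and -0.33 in DKO cells). Between genotypes, Gadd45a was 2.16-fold lower in untreated DKO than in untreated WT cells, and Btg2, an antiproliferative gene, was 2.00-fold higher in DKO cells with LPS, at 955 against 477 units.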
